A study of Homo sapiens with 8 samples.

Results

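Keratins are the proteins of the intermediate filaments of epithelial cells. Filaments are built from pairs of a type I (acidic) and a type II (basic) keratin, so an epithelial cell makes members of both types. KRT8 and KRT18 are the typical pair of simple, single-layered epithelia such as the endometrial lining, where KRT7 and KRT19 are also made. KRT5 is the type II keratin of basal cells in stratified epithelia, and keratin levels are widely used by pathologists to describe where a carcinoma lies between glandular and squamous forms.

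The 10 keratin genes described here are the rows of a raw count table with the symbols KRT5, KRT7, KRT8 and KRT80 (4 type II genes) and KRT13, KRT15, KRT17, KRT18, KRT19 and KRT23 (6 type I genes), out of 26364 genes in the table and 55 keratin genes. They were chosen by name, with no threshold on their values, but with earlier results of these data known. Their shares set against all genes below are therefore a description. The counts come from RNA sequencing of Ishikawa cells, an established human endometrial adenocarcinoma line that responds to estrogen, grown in medium without phenol red and with hormone-stripped serum in every group. The 4 groups received DMSO (the vehicle), 100 nM dexamethasone (an agonist of the glucocorticoid receptor), 10 nM estradiol (17-beta-estradiol, which activates the estrogen receptor), or the 2 hormones combined. Each group had 2 libraries, and the labels of the samples give 8 hr of treatment while the protocol shared by all samples gives 1 hr, which the sources used here do not settle. All groups are of a single line, and no label says that replicates were grown as separate cultures, so p-values measure only the spread between these libraries.

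Libraries held between 17846211 and 22487333 counts, and the 10 keratins took between 0.238% and 0.390% of them. The epithelial genes EPCAM (317 to 386 CPM, counts scaled to a common library size) and CDH1 (500 to 604 CPM) were high in every library, and the summed epithelial marker list lay between 2092 and 2395 CPM. At the low end of that list of 10 genes were MUC1 at 5.07 to 9.26 CPM and FOXA2 at 0 to 0.048 CPM. Of 6 leukocyte markers LYZ, PTPRC, CSF1R and CD3E were under 1 CPM in every library, CD3E at 0. Of 6 endothelial markers PECAM1, CDH5 and TEK were at 0 to 0.0561 CPM in every library, while KDR was under 1 CPM without dexamethasone (0.0972 to 0.262 CPM) and above it with dexamethasone (1.08 to 1.46 CPM). The summed endothelial list was at 8.55 to 8.75 CPM in DMSO, 10.6 to 11.4 with dexamethasone, 7.83 to 8.48 with estradiol and 9.74 to 11.2 with both, and its part in the results on keratins was not tested. In the fibroblast list DCN, LUM, PDGFRA and PDGFRB were under 1 CPM while COL1A1 was at 123 to 185 CPM. The glucocorticoid-induced gene TSC22D3 rose with dexamethasone by 3.23 ± 0.14 on the log2 scale (edgeR adjusted p = 7.2e-07) and the estrogen-induced gene PGR rose with estradiol by 3.46 ± 0.40 (edgeR adjusted p = 0.00165). Both dexamethasone libraries stood apart from others in some way: PGR was at 8.91 CPM in replicate 1 against 2.47 CPM in replicate 2, and RNA45S5, a ribosomal RNA gene, took up 1.42% of counts in replicate 2 against 2.79% to 4.03% elsewhere. Called results on keratins are therefore given with and without each of these libraries, and the part of either feature in them was not tested. In bulk RNA, fewer cells of a type and less RNA per cell cannot be told apart.

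RefSeq promoter sequences were at hand for 2 of the 10 genes, KRT5 and KRT8. They are shown because the first is the keratin with the largest called response to dexamethasone and the second is the most abundant keratin, whose difference did not pass the test. Each line holds the 250 bases before the gene's start in GRCh38.p14, KRT5 at chr12:52520395-52520644 and KRT8 at chr12:52926470-52926719, both read on the minus strand.
KRT5: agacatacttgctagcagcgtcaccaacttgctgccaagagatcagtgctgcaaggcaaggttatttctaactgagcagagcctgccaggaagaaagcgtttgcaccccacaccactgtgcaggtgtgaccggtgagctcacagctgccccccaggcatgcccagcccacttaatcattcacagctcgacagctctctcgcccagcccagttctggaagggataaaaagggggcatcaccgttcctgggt
KRT8: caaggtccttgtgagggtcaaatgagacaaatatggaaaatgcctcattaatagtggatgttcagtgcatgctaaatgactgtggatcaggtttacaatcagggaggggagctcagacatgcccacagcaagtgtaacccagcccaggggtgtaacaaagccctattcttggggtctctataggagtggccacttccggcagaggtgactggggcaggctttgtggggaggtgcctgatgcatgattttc
No letters are in capitals because none of the 3 motifs searched on both strands, with 50 further bases after the start, was found in either promoter. The motifs were the glucocorticoid response element (GNACA and TGTNC on either side of any 3 bases), held by 0.39% of 35116 promoters, the estrogen response element (GGTCA and TGACC, spaced alike), held by 0.057%, and the AP-1 site TGANTCA, held by 7.71%. The absence of a match says only that these letters are not in these windows.

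In the DMSO libraries the keratins covered a wide range of levels. Levels between genes were compared as CPM per kilobase of the principal transcript. The filament pair of simple epithelia stood at the top, with KRT8 at 666 ± 119 CPM per kilobase (SD, n = 2) and KRT18 at 469 ± 66.5. KRT19, a type I keratin of simple and glandular epithelia, followed at 179 ± 26.2. KRT5 (35.9 ± 4.41) and KRT80 (32.7 ± 5.22), a type II keratin of many epithelia, came next, and the libraries of these neighbours overlapped. KRT17, a type I keratin of basal and appendage epithelia that is induced after injury, was at 22.0 ± 7.59 CPM per kilobase. KRT7, a type II keratin of glandular epithelia, was at 6.96 ± 1.37 and KRT23, a little-studied type I keratin, at 3.70 ± 0.716. Apart from KRT5 and KRT80, the DMSO libraries of neighbours in this order did not overlap, down to KRT13 at 0.0452 ± 0.0235 and KRT15, a keratin of basal cells and hair follicle stem cells, at 0.

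**Figure D1:**
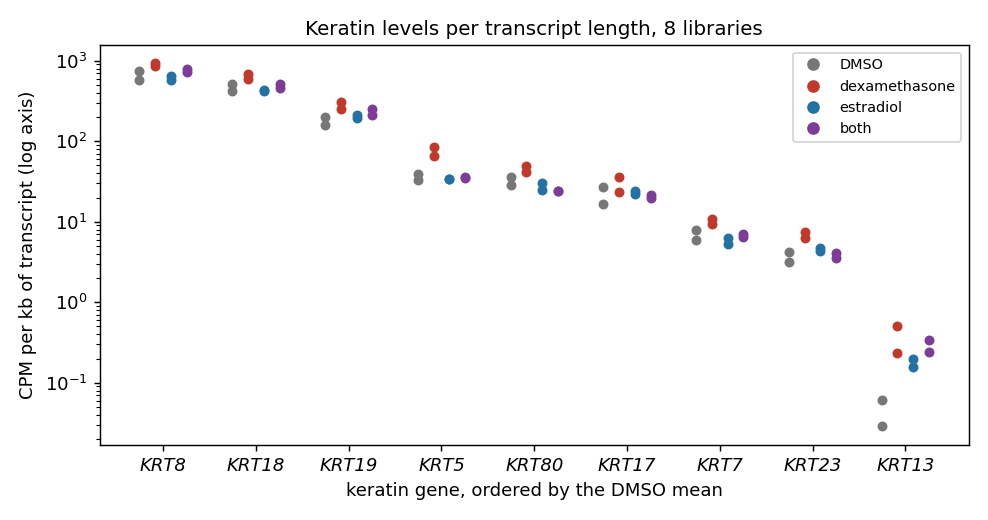
Keratin levels in CPM per kilobase of the principal transcript on a log axis, with a dot for each of the 8 libraries coloured by group and genes ordered by their DMSO mean. KRT8, KRT18 and KRT19 lie highest, the DMSO dots of KRT5 and KRT80 overlap, and KRT13 is far below the other genes shown.

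Dexamethasone alone was compared with DMSO to ask which keratins follow the glucocorticoid signal. KRT5 was at 83.0 and 98.8 CPM in the DMSO libraries and at 167 and 215 CPM in the dexamethasone libraries. The groups were well apart, and the rise was 2.10-fold, a log2 fold change of 1.07 ± 0.13 (edgeR's quasi-likelihood test, Benjamini-Hochberg adjusted p = 0.00156). The call held whichever of the 8 libraries was left out (adjusted p up to 0.00967), and the log2 fold change was 1.24 without dexamethasone replicate 1 and 0.88 without replicate 2.

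KRT23 was at 6.35 and 8.36 CPM in DMSO and at 14.8 and 12.6 CPM with dexamethasone. It rose 1.86-fold, with a log2 fold change of 0.90 ± 0.17 (edgeR adjusted p = 0.0344). It did not pass when DMSO replicate 1, either dexamethasone library or either estradiol library was left out (adjusted p up to 0.208), and when only the 2 groups compared were fitted (adjusted p = 0.158). The log2 fold change was 0.78 without dexamethasone replicate 1 and 1.01 without replicate 2.

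KRT19 was at 223 and 275 CPM in DMSO and at 349 and 426 CPM with dexamethasone. Its log2 fold change was 0.64 ± 0.14, short of the threshold (edgeR adjusted p = 0.0616, and 0.000619 to 0.378 over the alternatives, of which 4 of 14 called it). KRT80 was at 112 and 140 CPM in DMSO and at 162 and 193 CPM with dexamethasone, a log2 fold change of 0.49 ± 0.14 (edgeR adjusted p = 0.194, and 0.0068 to 0.772 over the alternatives, of which 3 of 14 called it). For both genes the dexamethasone libraries lay above the DMSO libraries.

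The abundant pair showed a smaller difference. KRT8 was at 1237 and 1595 CPM in DMSO and at 1839 and 1967 CPM with dexamethasone, a log2 fold change of 0.43 ± 0.13 (edgeR adjusted p = 0.258). KRT18 was at 660 and 807 CPM in DMSO and at 916 and 1055 CPM with dexamethasone, also 0.43 (± 0.12, edgeR adjusted p = 0.211). The libraries of the groups did not overlap for either gene, but for both the nearest libraries of the groups were closer to each other than the DMSO libraries were.

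KRT7 was at 10.5 and 13.9 CPM in DMSO and at 16.3 and 18.9 CPM with dexamethasone, with a log2 fold change of 0.52 ± 0.16 (edgeR adjusted p = 0.273). KRT17 was the keratin whose libraries overlapped, at 27.5 and 45.2 CPM in DMSO and 38.5 and 58.8 CPM with dexamethasone. Its log2 fold change was 0.42 ± 0.22 (edgeR adjusted p = 0.592), and replicate 2 was 1.64 times replicate 1 in DMSO and 1.53 times in the dexamethasone group.

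Of the 9 keratins tested, 2 rose with dexamethasone and 0 fell, where 0.908% of all 14201 genes tested were called higher and 0.0563% lower. At an unadjusted p under 0.05, 8 of 9 were higher, against 6.45% of all genes. The libraries did not overlap, with dexamethasone higher, for 8 of 9 keratins, against 18.5% of all genes. The median log2 fold change was 0.52 over the 9 keratins and 0.00 over all genes. DESeq2 called 5 keratins in this comparison, KRT5, KRT23, KRT19, KRT80 and KRT18, and limma-voom called 2. Over all genes DESeq2 called 185 and limma-voom 130. One of the 9, KRT13, passed the low-count filter through 2 libraries, both with dexamethasone, so its part in these counts, and in those of the other comparisons that involve dexamethasone, is not independent of the treatment. Replicate 2 lay above replicate 1 for 8 of 9 keratins in DMSO and for 7 of 9 in the dexamethasone and in the estradiol group. Keratin levels thus shifted between libraries of the same group as well.

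**Figure D2:**
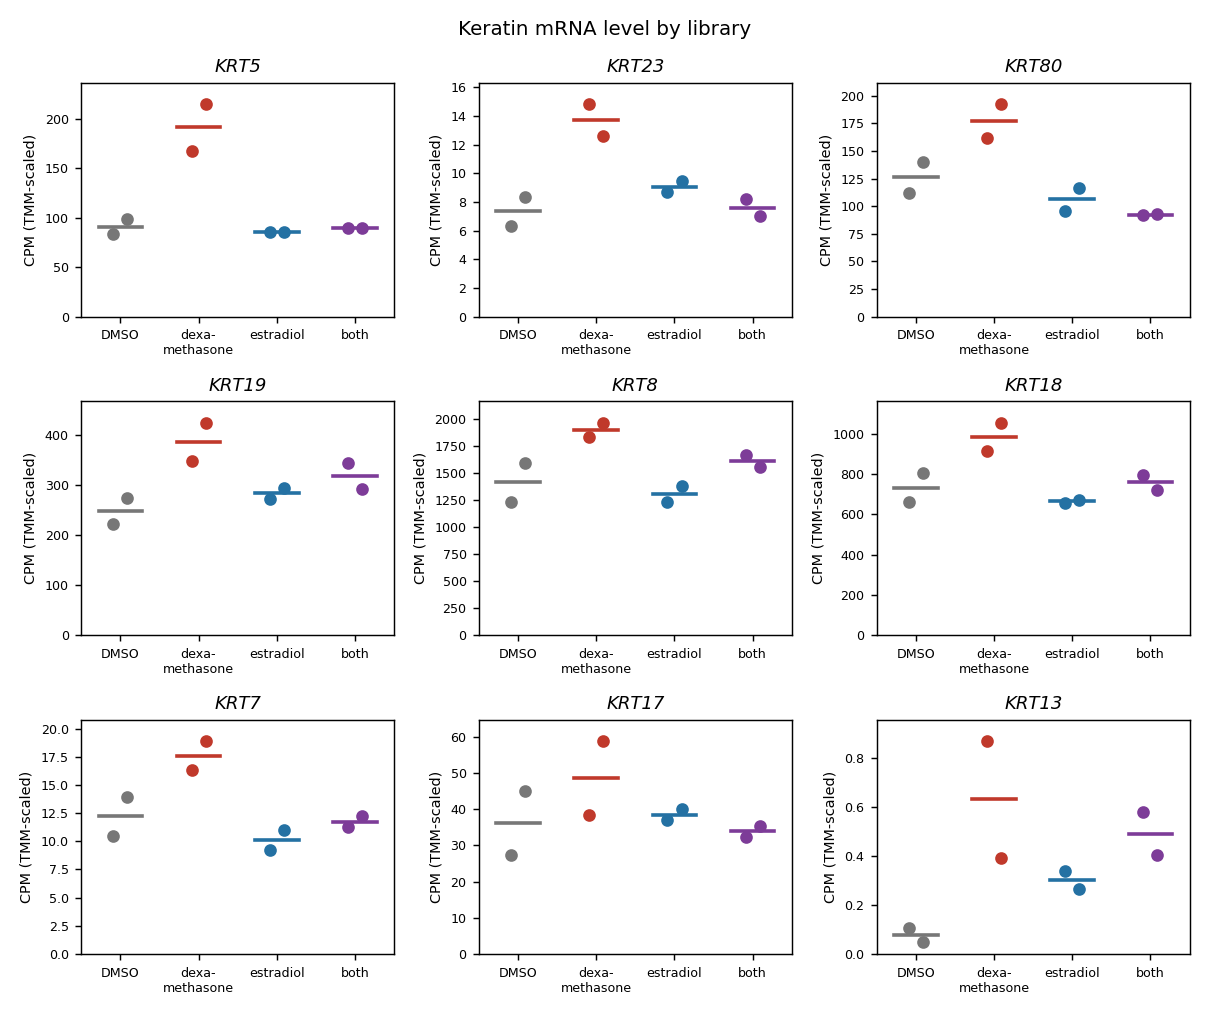
Levels of the 9 tested keratins by group in TMM-scaled CPM, with a dot for each of the 2 libraries and a bar at their mean. KRT5 with dexamethasone alone lies at 167 and 215 CPM, above its 6 other libraries at 83.0 to 98.8 CPM, and KRT80 is lowest with both hormones.

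With estradiol alone no keratin passed the test. KRT5 was at 85.9 and 85.7 CPM, KRT8 at 1229 and 1385 CPM and KRT18 at 658 and 673 CPM, each overlapping the DMSO libraries. KRT80 was at 95.9 and 117 CPM, a log2 fold change of -0.25 ± 0.14 (edgeR adjusted p = 0.583). KRT7 was at 9.18 and 11 CPM (log2 fold change -0.27 ± 0.17, edgeR adjusted p = 0.652).

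KRT19 with estradiol was at 272 and 296 CPM, a log2 fold change of 0.19 ± 0.14 (edgeR adjusted p = 0.721). KRT23 was at 8.67 and 9.45 CPM, just above both DMSO libraries, with a log2 fold change of 0.30 ± 0.17 (edgeR adjusted p = 0.614). KRT17 was at 37.1 and 40.1 CPM, between the DMSO libraries. By edgeR 0 of 9 keratins were called for estradiol against DMSO, where 1.8% of all genes were called, and 1 of 9 (KRT13) had an unadjusted p under 0.05, against 11.4% of all genes. DESeq2 and limma-voom each called 0. Estradiol libraries lay above the DMSO libraries without overlap for 2 of 9 keratins, KRT13 and KRT23, against 18.3% of all genes.

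With both hormones KRT5 did not stand at the level reached with dexamethasone alone. It was at 89.9 and 89.5 CPM with both, close to DMSO and to estradiol alone. Compared with dexamethasone alone it fell by 1.09 ± 0.13 on the log2 scale (edgeR adjusted p = 0.00273), and the call held whichever library was left out (adjusted p up to 0.0281). The difference was -1.26 without dexamethasone replicate 1 and -0.90 without replicate 2.

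KRT80 was at 92.0 and 92.7 CPM with both hormones, below every library of the other groups. Compared with dexamethasone alone it fell by 0.94 ± 0.14 (edgeR adjusted p = 0.00576), a call lost only without dexamethasone replicate 2 (adjusted p = 0.0574). The difference was -1.06 without dexamethasone replicate 1 and -0.82 without replicate 2. Against DMSO the log2 fold change of KRT80 was -0.45 ± 0.14 and did not pass the test (edgeR adjusted p = 0.169).

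KRT23 was at 8.21 and 7.0 CPM with both hormones. Compared with dexamethasone alone it fell by 0.85 ± 0.17 (edgeR adjusted p = 0.0251). That call was lost without any one of the dexamethasone, estradiol or combination libraries (adjusted p up to 0.225), with differences of -0.73 without dexamethasone replicate 1 and -0.97 without replicate 2.

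For KRT8, KRT18 and KRT19 the difference did not pass the test. KRT8 was at 1671 and 1555 CPM with both hormones, with a log2 fold change of -0.24 ± 0.13 from dexamethasone alone (edgeR adjusted p = 0.387). KRT18 was at 798 and 722 CPM (-0.37 ± 0.12, edgeR adjusted p = 0.146), and KRT19 at 345 and 292 CPM (-0.28 ± 0.13, edgeR adjusted p = 0.33). All 3 genes lay below the dexamethasone libraries without overlap.

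KRT7 was at 11.2 and 12.3 CPM with both hormones, a log2 fold change of -0.58 ± 0.16 from dexamethasone alone (edgeR adjusted p = 0.099, and 0.0352 to 0.473 over the alternatives, of which 4 of 14 called it). KRT17 was at 32.5 and 35.3 CPM (-0.52 ± 0.22, edgeR adjusted p = 0.273). Neither difference passed the test. Adding estradiol to dexamethasone thus lowered 3 of 9 keratins, KRT5, KRT80 and KRT23, and raised 0, where 1.84% of all genes were called lower and 0.824% higher. At an unadjusted p under 0.05, 6 of 9 were lower, against 9.42% of all genes. Libraries with both hormones lay below those with dexamethasone alone for 8 of 9 keratins, against 25% of all genes, KRT13 being the exception. This comparison shares the dexamethasone libraries with dexamethasone against DMSO, so a high value in those libraries enters both.

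Dexamethasone was also compared in the presence of estradiol, as both hormones against estradiol alone, which shares no library with dexamethasone against DMSO. There the log2 fold change of KRT5 was 0.06 ± 0.13 (95% interval -0.21 to 0.34, edgeR adjusted p = 0.996), an interval that lies below the 1.07 measured without estradiol. KRT23 was at -0.25 ± 0.17 (95% interval -0.63 to 0.13, edgeR adjusted p = 0.959) and KRT80 at -0.20 ± 0.14 (95% interval -0.50 to 0.10, edgeR adjusted p = 0.957).

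KRT8 had a log2 fold change of 0.30 ± 0.13 in the presence of estradiol (edgeR adjusted p = 0.755), KRT7 of 0.21 ± 0.17, KRT18 of 0.19 ± 0.12 and KRT19 of 0.17 ± 0.13. By edgeR 0 of 9 keratins were called, where 0.275% of all genes were called, and 1 of 9 (KRT8) had an unadjusted p under 0.05, against 6.37% of all genes. DESeq2 and limma-voom each called 0. Libraries with both hormones lay above those with estradiol for 5 of 9 keratins (KRT5, KRT7, KRT8, KRT18 and, with the same reservation on its filter, KRT13), against 18.1% of all genes, and below them for 3 of 9 (KRT17, KRT23 and KRT80), against 19.6%.

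**Figure D3:**
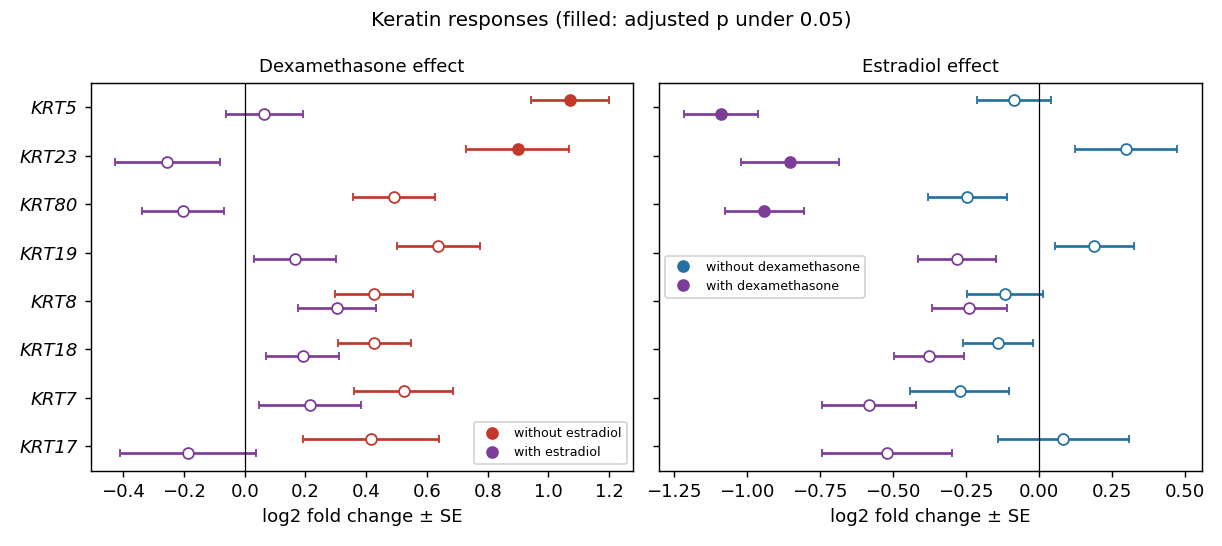
Log2 fold changes of 8 keratins for dexamethasone without and with estradiol (left) and for estradiol without and with dexamethasone (right), with bars for the standard error of the fit and filled points for an edgeR adjusted p under 0.05. For dexamethasone KRT5 lies at 1.07 without estradiol and 0.06 with it, while KRT8 lies at 0.43 and 0.30.

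Whether the dexamethasone effect differed with estradiol was tested by the interaction, the effect with estradiol minus the effect without it. For KRT5 it was -1.01 ± 0.18 on the log2 scale (95% interval -1.40 to -0.61), with an unadjusted p of 0.000167 and an edgeR adjusted p of 0.237. It was thus not called, but DESeq2 called it (adjusted p = 0.00032), and the adjusted p lay between 0.00032 and 1 over 13 alternatives, of which 2 called it. KRT23 had an interaction of -1.15 ± 0.24 (edgeR adjusted p = 0.355, and 0.0341 to 1 over the alternatives, of which 1 called it).

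KRT80 had an interaction of -0.70 ± 0.19 (edgeR adjusted p = 0.678), and KRT19 of -0.47 ± 0.19 (edgeR adjusted p = 0.945). By edgeR 0 of 9 keratins were called for the interaction, where 0.0211% of all genes, 3 genes, were called, and by limma-voom 0. At an unadjusted p under 0.05, 5 of 9 keratins were lower, KRT5, KRT23, KRT80, KRT19 and KRT13 (the gene that passed the filter through dexamethasone libraries), against 3.43% of all genes. The estimates of dexamethasone against DMSO and of the interaction share the same DMSO and dexamethasone libraries.

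Both hormones against DMSO called 0 of 9 keratins by edgeR, where 2.19% of all genes were called, and 0 by DESeq2 and by limma-voom. An unadjusted p under 0.05 was found for 3 of 9 (KRT13, KRT19 and KRT80), against 10.8% of all genes. KRT19 was above DMSO without overlap, with a log2 fold change of 0.36 ± 0.14 (edgeR adjusted p = 0.332), and so was KRT13, 2 of 9 against 19.8% of all genes. KRT80 was below DMSO without overlap, 1 of 9 against 19.3%. KRT8 had a log2 fold change of 0.19 ± 0.13 (edgeR adjusted p = 0.728). Its libraries overlapped those of DMSO, as did those of KRT5, KRT7, KRT17, KRT18 and KRT23.

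Over all 8 libraries each hormone can also be read as an average, 4 libraries with it against 4 without. KRT5 was higher on average with dexamethasone, by 0.57 ± 0.09 (edgeR adjusted p = 0.00991), the single keratin of 9 called, where 1% of all genes were called higher. It did not pass when either estradiol library was left out (adjusted p up to 0.0812), and this average stands for 1.07 without estradiol and 0.06 with it. KRT19 (0.40 ± 0.10, edgeR adjusted p = 0.0985), KRT8 (0.36 ± 0.09, edgeR adjusted p = 0.12) and KRT18 (0.31 ± 0.08, edgeR adjusted p = 0.182) did not pass. DESeq2 called these 3 as well as KRT5, where it called 226 genes over all.

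On average over both backgrounds estradiol lowered 2 of 9 keratins, where 3.26% of all genes were called lower. KRT5 fell by 0.59 ± 0.09 (edgeR adjusted p = 0.00314) and KRT80 fell by 0.59 ± 0.10 (edgeR adjusted p = 0.00438), and both calls held whichever library was left out (adjusted p up to 0.0246 and 0.0318). For KRT5 the log2 fold change was -0.08 in the absence of dexamethasone and -1.09 in its presence. The average for KRT5 thus came from the background with dexamethasone. For KRT80 the log2 fold change was -0.25 in the absence of dexamethasone and -0.94 in its presence. KRT7 (-0.43 ± 0.12, edgeR adjusted p = 0.0601), KRT18 (-0.26 ± 0.08, edgeR adjusted p = 0.117) and KRT23 (-0.28 ± 0.12, edgeR adjusted p = 0.232) did not pass. DESeq2 called KRT7 and KRT18 among 4 keratins, where it called 875 genes over all.

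Because filaments need both types, the keratins were summed by type as CPM per kilobase. Type II keratins summed to 650 and 834 in DMSO, 982 and 1071 with dexamethasone, 642 and 722 with estradiol, and 852 and 798 with both hormones. Type I keratins summed to 603 and 746 in DMSO, 869 and 1024 with dexamethasone, 644 and 673 with estradiol, and 783 and 698 with both. The means of both sums were higher with dexamethasone than with DMSO, by a factor of 1.38 for type II and 1.40 for type I. The exact two-sided permutation test used for sums gave p = 0.33 for each, the smallest it can give for 2 libraries against 2, so it could not call either difference.

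The type I sum was 87.5% to 100.2% of the type II sum over the 8 libraries. KRT8 per kilobase was 1.37 to 1.58 times KRT18. KRT5, the basal type II keratin, was at 5.64% and 5.20% of the KRT8 level per kilobase in DMSO and 7.65% and 9.17% with dexamethasone. It was at 5.87% and 5.20% with estradiol and 4.52% and 4.84% with both hormones. The share was thus highest in the 2 libraries with dexamethasone alone and lowest in the 2 with both hormones, and the exact two-sided permutation p for dexamethasone against DMSO was 0.33, the smallest that 2 against 2 can give.

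The least expressed members were KRT13, a type I keratin of mucosal stratified epithelia, and KRT15. KRT13 had 2 and 1 counts in DMSO, 18 and 7 with dexamethasone, 6 and 6 with estradiol, and 13 and 9 with both. Relative to DMSO, the scaled counts were 8.56 times as high with dexamethasone (95% counting interval 2.61 to 44.3), 3.92 times with estradiol (1.06 to 21.7) and 6.48 times with both (1.95 to 33.8). These intervals cover counting error only, and edgeR's adjusted p for dexamethasone against DMSO was 0.103 (0.0459 to 0.33 over the alternatives). KRT15 had 14 counts in all 8 libraries together, 0 in both DMSO libraries, and was not tested.

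The table lists 45 other keratins, and 4 of them passed the filter, KRT10, KRT6A, KRT86 and KRT83. With dexamethasone against DMSO edgeR called 0 of these 4, where 0.965% of all genes were called. At an unadjusted p under 0.05 there were 3 of 4, KRT6A, KRT86 and KRT83, all higher, against 9.84% of all genes in either direction. KRT10, a type I keratin of the upper epidermis, was the highest of them at 19.8 to 29.7 CPM. Its log2 fold change was 0.03 ± 0.15 with dexamethasone against DMSO (edgeR adjusted p = 0.972). From dexamethasone to both hormones it was 0.31 ± 0.14 (edgeR adjusted p = 0.312), not in the direction of the fall seen in the called keratins. KRT6A, an injury-induced type II keratin next to KRT5 on chromosome 12, was at 0.630 and 1.12 CPM in DMSO and 2.12 and 3.76 CPM with dexamethasone. Its log2 fold change was 1.72 ± 0.41 (edgeR adjusted p = 0.116, and 0.00506 to 0.585 over the alternatives). It was at 0.619 and 0.971 CPM with estradiol and 1.91 and 1.12 CPM with both hormones. KRT83, named after its values were known, was at 0.105 and 0.0972 CPM in DMSO and 0.530 and 0.561 CPM with dexamethasone. Its log2 fold change was 2.36 ± 0.61 (edgeR adjusted p = 0.156). It passed the filter only through the libraries with dexamethasone alone, so its part in the count above is not independent of the treatment.

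KRT86, a hair keratin, lies next to KRT7 and was chosen after its values were known. In DMSO it was at 0.577 and 0.632 CPM, and its log2 fold change with dexamethasone was 1.20 ± 0.34 (edgeR adjusted p = 0.221). It was at 1.49 and 1.29 CPM with dexamethasone and at 0.266 and 0.269 CPM with both hormones, where it rested on 6 counts in each library. It fell by 2.36 ± 0.39 between these groups (edgeR adjusted p = 0.0106), a call that needed dexamethasone replicate 2 and both combination libraries (adjusted p up to 0.122 when one was left out).

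Several keratin transcripts resemble other genes, and how reads that fit more than one gene were counted was not stated. In a search of annotated transcripts at 90% identity or more over at least 100 bases, KRT5 shared 379 bases with KRT6A at 93.4% identity. KRT8 matched 31 other genes, the longest being KRT8P14 (1461 bases, 90.1%). Of the 31 only 4 are rows of the count table, the longest match among them being TTBK2 (805 bases, 91.1%). KRT18 matched 39, of which 1 is in the table, KRT18P55 (1402 bases, 90.4%). KRT17 matched 6, the longest being KRT17P2 (1318 bases, 93.7%), and 2 are in the table, with KRT14 the longer match (657 bases, 92.4%). KRT19 matched 2, KRT19P1 (1201 bases, 91.0%) and, in the table, MIR492 (114 bases, 93.9%). KRT13 and KRT15 shared 243 bases at 90.1%. KRT7 and KRT23 matched 0 other genes. The type II genes lie on chromosome 12, together with KRT18 beside KRT8, and the other type I genes lie on chromosome 17. KRT80 neighbours KRT7, and KRT13, KRT15 and KRT19 follow each other.

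For the 3 keratins called in a comparison of 2 groups, the genes whose log2 CPM over the 8 libraries was most like theirs were taken by Pearson's r, as a description of libraries that share their treatments. For KRT5 these were MAL (r = 0.987), a membrane protein of apical transport, GABRP (r = 0.982), a GABA receptor subunit, and ETS2 (r = 0.978), a transcription factor. MAL was at 35.7 and 41.8 CPM in DMSO, 69.3 and 90.6 CPM with dexamethasone, 36.0 and 34.4 CPM with estradiol, and 43.7 and 39.3 CPM with both, high in the same 2 libraries as KRT5. For KRT80 they were CYR61 (r = 0.991), a secreted matrix protein, HID1 (r = 0.983) and TMEM44-AS1 (r = 0.982). CYR61 was at 69.9 and 87.7 CPM in DMSO, 97.0 and 131 CPM with dexamethasone, 61.4 and 73.7 CPM with estradiol, and 53.9 and 57.4 CPM with both, lowest with both hormones as KRT80 was. For KRT23 they were RNASE4 (r = 0.962), AIF1L (r = 0.958) and MED11 (r = 0.952).

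Keratin filaments end at desmosomes and hemidesmosomes, and 24 of 27 listed genes of these junctions and their linker proteins were tested. With dexamethasone alone edgeR, DESeq2 and limma-voom each called 0 of 24, where edgeR called 0.965% of all genes in either direction. At an unadjusted p under 0.05 there were 2 of 24, against 9.84% of all genes. The median log2 fold change was -0.05, against 0.00 over all genes. With estradiol alone 4 of 24 fell and 0 rose, where 0.613% of all genes were called lower.

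The 4 were PKP1 (plakophilin 1) and JUP (plakoglobin), plaque proteins of desmosomes, PPL (periplakin), which links keratin to the plaque, and ITGB4, the integrin that anchors keratin at the hemidesmosome. PKP1 was at 8.87 and 9.29 CPM in DMSO and 5.52 and 5.03 CPM with estradiol, and fell by 0.79 ± 0.16 (edgeR adjusted p = 0.0395). ITGB4 was at 276 and 337 CPM in DMSO and 186 and 207 CPM with estradiol, and fell by 0.64 ± 0.12 (edgeR adjusted p = 0.023). JUP fell by 0.58 ± 0.13 (edgeR adjusted p = 0.0492) and PPL fell by 0.50 ± 0.10 (edgeR adjusted p = 0.0365).

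Each of these 4 calls was lost without either estradiol library and without at least 1 DMSO library (adjusted p up to 0.314, 0.212, 0.299 and 0.222, in the order PKP1, ITGB4, JUP, PPL). The dexamethasone libraries of PKP1, JUP and ITGB4 overlapped the DMSO libraries. Between dexamethasone and both hormones PKP1 fell by 0.79 ± 0.16 (edgeR adjusted p = 0.0324), ITGB4 fell by 0.79 ± 0.12 (edgeR adjusted p = 0.00755) and JUP fell by 0.55 ± 0.13 (edgeR adjusted p = 0.0484), 3 of 24 of the list where 1.84% of all genes were called lower. Without dexamethasone replicate 2 or either combination library each of these 3 missed the threshold (adjusted p up to 0.249, 0.0726 and 0.348). On average over both backgrounds, estradiol lowered 5 of 24 (PKP1, PPL, JUP, ITGB4 and LAMA3), where 3.26% of all genes were called lower, and raised 1 of 24 (ITGA6), where 2.54% were called higher. DSP, the desmoplakin that binds keratin in desmosomes, was at 409 to 546 CPM over the 8 libraries.

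**Figure D4:**
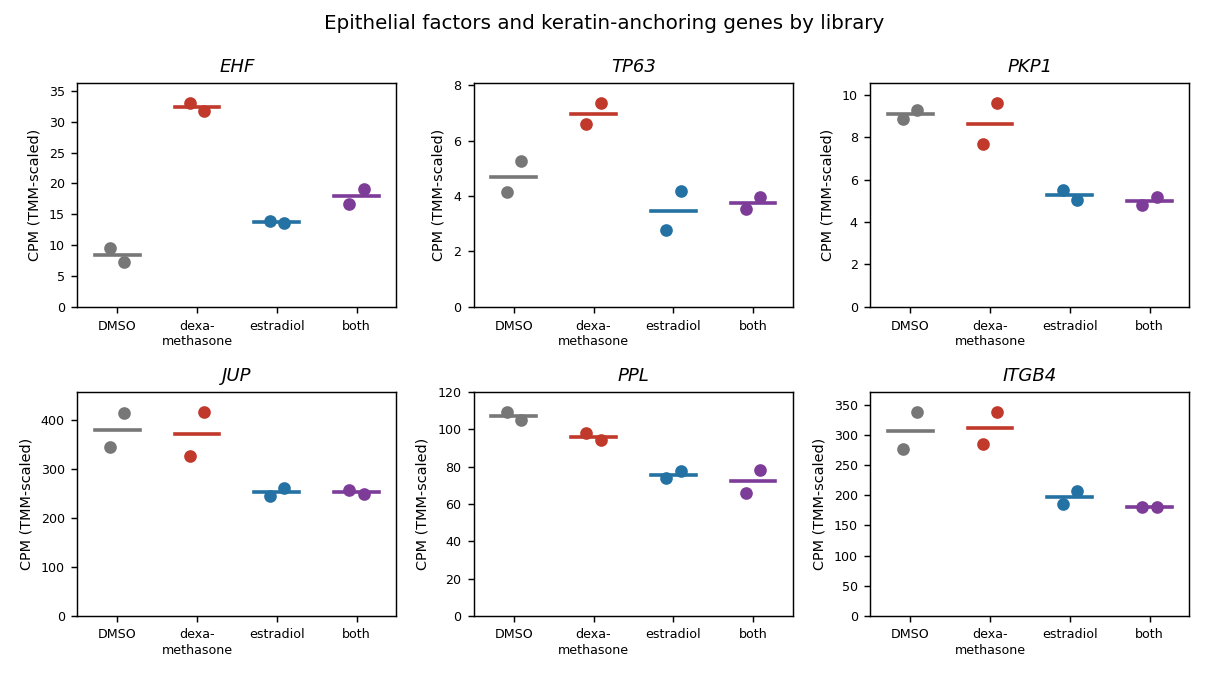
Levels in TMM-scaled CPM of EHF and TP63, epithelial transcription factors, and of PKP1, JUP, PPL and ITGB4, genes of keratin-anchoring junctions, with a dot for each library and a bar at the group's mean. EHF is highest with dexamethasone alone (33.0 and 31.7 CPM), while PKP1 lies at 4.79 to 5.52 CPM in the 4 libraries with estradiol and at 7.66 to 9.60 CPM in the other 4.

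Among epithelial transcription factors 16 of 18 listed genes were tested, and 1 rose with dexamethasone, where 0.908% of all genes were called higher. With estradiol alone 2 of 16, EHF and CEBPB, were called higher and 0 lower, where 1.8% of all genes were called in either direction. EHF, an ETS factor of glandular epithelia, was at 9.50 and 7.20 CPM in DMSO, 33.0 and 31.7 CPM with dexamethasone, 13.9 and 13.6 CPM with estradiol, and 16.7 and 19.1 CPM with both. It rose by 1.96 ± 0.15 with dexamethasone (edgeR adjusted p = 6.45e-05), and fell by 0.85 ± 0.14 from dexamethasone to both hormones (edgeR adjusted p = 0.00921), the latter not without dexamethasone replicate 2 or combination replicate 1 (adjusted p up to 0.12). Its interaction of -1.57 ± 0.20 was 1 of the 3 called over all genes (edgeR adjusted p = 0.0462), and was lost without 5 of the 8 libraries (adjusted p up to 0.366).

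TP63, the p63 factor that marks basal epithelial cells, was low, at 4.15 and 5.25 CPM in DMSO, 6.60 and 7.35 CPM with dexamethasone, 2.76 and 4.19 CPM with estradiol, and 3.55 and 3.95 CPM with both. On average estradiol lowered it by a log2 fold change of -0.66 ± 0.16 (edgeR adjusted p = 0.0348), a call that 8 of 13 alternatives kept. GRHL2, a factor of epithelial junction genes, fell by 0.38 ± 0.07 on average with estradiol (edgeR adjusted p = 0.00984), but not without estradiol replicate 1 or combination replicate 1 (adjusted p up to 0.0613). Of 13 genes of squamous cornification, such as IVL and FLG, which were at 0 in every library, 4 passed the filter, SFN, TGM1, CNFN and SCEL. Dexamethasone called 0 of these 4 by edgeR, DESeq2 and limma-voom. By edgeR 2 of them had an unadjusted p under 0.05, both higher with dexamethasone. They were SFN (log2 fold change 0.44 ± 0.18, at 11.7 to 25.4 CPM) and CNFN (1.55 ± 0.54, at 0.340 to 1.35 CPM). CNFN passed the low-count filter, with a cutoff of 0.481 CPM, through the libraries with dexamethasone (0.628 to 1.35 CPM). Without dexamethasone it was at 0.367 and 0.340 CPM in DMSO and at 0.394 and 0.839 CPM with estradiol. Its part in this count is therefore not independent of the treatment. Of all genes, 0.965% were called by edgeR and 9.84% had such an unadjusted p. Of 14 genes of other intermediate filaments 11 were tested and 0 were called for dexamethasone by the same 3 tools, with 2 of 11 at an unadjusted p under 0.05, against the same 9.84%. On average over both backgrounds estradiol lowered 2 of these 11 by edgeR (LMNA and NES), where 3.26% of all genes were called lower. DESeq2 called 1 of 11 lower and limma-voom 2. From dexamethasone to both hormones edgeR called 1 of 11 (NEFH) higher, where 0.824% of all genes were, and DESeq2 and limma-voom called 0. VIM, the vimentin filament of mesenchymal cells, was at 2.33 to 3.55 CPM in every library.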

How the data were processed

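RNA of 8 Ishikawa libraries, 2 in each of 4 groups, was sequenced from a stranded mRNA kit, per the labels' protocols. The authors deposited raw counts per gene, whole numbers that were used for all tests, and a normalised table that was not used. HISAT2 2.0.4, Subread with featureCounts 1.5.1, DESeq2 1.14.1 and the build hg19 are named in the submitters' processing notes. Which annotation was counted, and whether by strand, is not given in the sources used here. Overlapping or antisense genes may therefore share reads. Both combination columns carry the number 1 and differ only in the case of a letter. The column spelled like the sample title numbered 1 was taken as combination replicate 1, which rests on that spelling alone. The other was assigned to its group only and is called the combination library without a number. The members, gene lists and tests were chosen with earlier results of these data known.

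Genes were filtered with filterByExpr by group (14201 of 26364 kept), scaled by TMM and fitted with edgeR 4.0.16 (limma 3.58.1, R 4.3.3) by the quasi-likelihood test over all 8 libraries, with 4 residual degrees of freedom and no covariates. P-values were adjusted by Benjamini-Hochberg within each of the contrasts over all genes tested, with a threshold of 0.05. Errors of log2 fold changes are standard errors of the fit, and intervals are at 95%. Library totals of 17846211 to 22487333 counts leave genes of a few counts imprecise. Replicates differed beyond counting noise (chi-square per degree of freedom 9.61 to 24.8). Alternatives were DESeq2 size factors, no filter, DESeq2 1.42.0, limma-voom, a fit of only the groups compared, a replicate block, and each library left out. Sums were compared by exact permutation. Lengths are those of principal transcripts in the reference annotation, and resembling transcripts were sought with blastn 2.17.0. Named genes were the 10 members, called members of each list above 1 CPM, other keratins above 1 CPM, and the 3 genes most like each called keratin by Pearson's r of log2(CPM + 0.5), among genes with a mean log2 CPM above 1. Some were left out for brevity.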

Additional observations from a re-analysis of the deposited data

Results flagged for a closer look

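For KRT80 and KRT23 the libraries with dexamethasone lay above those without it in the absence of estradiol and below them in its presence. The log2 fold change of KRT80 with dexamethasone was 0.49 without estradiol and -0.20 with it, and that of KRT23 was 0.90 without estradiol and -0.25 with it. KRT23 showed the same for estradiol, whose log2 fold change was 0.30 without dexamethasone and -0.85 with it. The difference itself was tested by the interaction and was called by edgeR for neither gene (adjusted p = 0.678 for KRT80 and 0.355 for KRT23).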

How the results depend on the processing

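KRT5 kept its calls for dexamethasone against DMSO, for both hormones against dexamethasone and for the average estradiol effect under every alternative run. Of 958 log2 fold changes of named genes under the alternatives, 844 kept their side of the threshold, 41 passed it anew, 73 lost it and 0 changed direction. Keratins called for dexamethasone were 2 as reported, 5 with DESeq2 and with no filter, 4 with the replicate block and 1 with only the groups compared. For the average dexamethasone effect 1 became 4 with DESeq2, with no filter and with the block, and for the average estradiol effect 2 became 4 with DESeq2 and no filter. Both hormones against DMSO gave 1 with no filter (KRT80) and 1 with the block (KRT19), where 0 were reported, and the interaction gave 1 with DESeq2 and 2 with no filter. With no filter, genes called were 253 for dexamethasone (137 reported), 442 for estradiol (256), 658 for both against dexamethasone (379), 132 for both against estradiol (39), 295 for the average dexamethasone effect (152) and 32 for the interaction (3). DESeq2 called 75 genes for both against estradiol and 15 for the interaction. Fits of only the groups compared called 63 for dexamethasone and 151 for both against estradiol. The cause was not tested.

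The replicate block used 7 numbered libraries and left 2 residual degrees of freedom. Differences between replicates 1 and 2 correlated over genes at 0.310 between DMSO and dexamethasone and 0.222 between DMSO and estradiol. Between dexamethasone and estradiol the correlation was 0.0615. These values do not settle whether the numbers pair samples, and the main fit took no block. The block called 241 genes for dexamethasone, 442 for estradiol, 176 for both against dexamethasone, 464 for the average dexamethasone effect and 5 for the interaction. Under it KRT23 lost its call for both against dexamethasone.

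Leaving out each library gave 78 to 127 genes for dexamethasone (lowest without DMSO replicate 1), 58 to 298 for estradiol (without estradiol replicate 2), 157 to 325 for both against DMSO and 89 to 488 for both against dexamethasone (each without combination replicate 1, and 194 and 100 without the combination library that has no number). It gave 10 to 68 for both against estradiol (without estradiol replicate 1), 1 to 10 for the interaction, 82 to 183 for the average dexamethasone effect and 422 to 904 for the average estradiol effect (424 without the unnumbered library). Keratins called were 1 to 3 for dexamethasone, 1 to 4 for both against dexamethasone, 0 to 4 and 2 to 4 for the averages of dexamethasone and estradiol, and 0 elsewhere. With 2 libraries a group, KRT13 and KRT15 rest on few counts.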

Other observations

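CEBPB, a factor of the acute-phase response from the list of epithelial transcription factors, was at 32.3 and 34.9 CPM in DMSO, 44.2 and 45.1 CPM with dexamethasone, 56.0 and 64.4 CPM with estradiol, and 56.7 and 54.7 CPM with both hormones, so the libraries with estradiol lay above the others. ITGA6, the hemidesmosome partner of ITGB4, was at 151 and 143 CPM in DMSO, 139 and 145 CPM with dexamethasone, 190 and 168 CPM with estradiol, and 171 CPM in both combination libraries. LAMA3, a laminin chain of the hemidesmosome matrix, was at 29.1 to 34.4 CPM in the libraries with estradiol and at 33.6 to 42.9 CPM in the others.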
